A study of Mus musculus with 6 samples.

Results

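The 8 genes described here encode matrix proteoglycans, syndecans and matricellular glycoproteins: *Bgn*, *Vcan*, *Hspg2*, *Sdc1*, *Sdc3*, *Tnc*, *Reln* and *Cthrc1*. They were chosen by symbol and make up 8 of the 621 genes in the deposited expression table, and all 8 passed the filter on low values. The table holds mRNA-seq of unsorted bone marrow (BM) cells from femurs and tibias of C57BL/6 mice aged 8 weeks. Libraries KO4, KO8 and KO9, named by replicate number, came from mice that the sample titles and the source field give as *Phc2* knockouts (3 libraries), and libraries WT1, WT3 and WT7 from wild-type mice (3 libraries). KO and WT mice had heterozygous parents, and the labels name no treatment for either group. The genotype field of the KO samples reads heterozygote, so the genotype of these libraries rests on the titles and the paper. *Phc2*, which encodes a subunit of Polycomb repressive complex 1 (PRC1), was not analysed here. Nothing in the sources ties each library to its own mouse, so p-values cover only the spread between these libraries.

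A proteoglycan is a core protein that carries long sulfated sugar chains, the glycosaminoglycans, which bind water, collagens and growth factors. Some proteoglycans are secreted into the matrix, and the syndecans stay in the cell membrane. Matricellular proteins are secreted into the matrix as well, but they act mainly on cell adhesion and signaling rather than as load-bearing fibers. In bone marrow most matrix is made by osteoblasts, reticular cells and vessels, whereas some of these genes are also used by blood cells. Syndecan-1, known as CD138, marks plasma cells, and in mice it is also found on B-cell precursors. Versican is expressed by monocytes as well as by fibroblasts.

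All 621 genes had a fold of 2 or more in at least 1 of the 9 KO and WT pairs, in the authors' normalized log2 values. The table is therefore read as selected on these same libraries, so p-values for the 2 genotypes are not independent evidence. *Xist*, the noncoding RNA of the inactive X chromosome of female cells, was at 74.6 FPKM in KO4, 113 FPKM in WT1 and 98.2 FPKM in WT3, and at 0.0192 FPKM or less in KO8, KO9 and WT7. FPKM divide the fragments of a gene by its exon length and by the mapped fragments of the library, so levels can be set side by side between genes. Lists of marker genes were read with the 8 genes left out. The stromal lists held 75 genes of osteoblasts and chondrocytes, mesenchymal and reticular cells, endothelium, and smooth muscle and pericytes. The 36 of them in the table summed to 180 to 820 FPKM in KO libraries, against 175 to 1592 FPKM in WT libraries. No marker in the table was at 0.

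The 8 genes fell into 3 patterns over the libraries, with *Sdc3* apart. The annotated promoters of *Tnc*, *Reln*, *Sdc3* and *Vcan* are shown because each stands for a different pattern, and because PRC1 is known to occupy promoters rich in CpG. The windows hold 250 bases before and 50 from the annotated start, 5′ to 3′, from RefSeq on GRCm38.p6, the assembly that mm10 names. Capitals mark CG and the word TATAAA.
Tnc promoter: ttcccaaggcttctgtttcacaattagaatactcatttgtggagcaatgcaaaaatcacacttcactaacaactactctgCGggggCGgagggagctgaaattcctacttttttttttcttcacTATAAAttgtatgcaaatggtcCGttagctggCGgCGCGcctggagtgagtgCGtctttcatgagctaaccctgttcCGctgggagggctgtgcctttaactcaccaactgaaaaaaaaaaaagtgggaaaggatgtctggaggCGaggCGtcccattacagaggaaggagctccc
Reln promoter: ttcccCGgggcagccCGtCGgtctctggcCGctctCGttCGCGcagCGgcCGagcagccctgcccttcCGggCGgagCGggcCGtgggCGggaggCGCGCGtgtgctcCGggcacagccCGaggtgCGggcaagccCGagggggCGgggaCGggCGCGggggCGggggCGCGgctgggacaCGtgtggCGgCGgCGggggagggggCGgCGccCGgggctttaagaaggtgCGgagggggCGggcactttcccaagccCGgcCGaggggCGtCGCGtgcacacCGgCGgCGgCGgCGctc
Sdc3 promoter: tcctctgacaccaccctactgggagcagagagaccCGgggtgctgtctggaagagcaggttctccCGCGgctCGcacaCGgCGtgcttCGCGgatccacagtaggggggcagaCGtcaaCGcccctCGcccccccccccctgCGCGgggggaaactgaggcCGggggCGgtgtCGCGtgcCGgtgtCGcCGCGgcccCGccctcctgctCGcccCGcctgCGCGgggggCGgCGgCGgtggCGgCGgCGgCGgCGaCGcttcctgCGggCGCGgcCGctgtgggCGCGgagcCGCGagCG
Vcan promoter: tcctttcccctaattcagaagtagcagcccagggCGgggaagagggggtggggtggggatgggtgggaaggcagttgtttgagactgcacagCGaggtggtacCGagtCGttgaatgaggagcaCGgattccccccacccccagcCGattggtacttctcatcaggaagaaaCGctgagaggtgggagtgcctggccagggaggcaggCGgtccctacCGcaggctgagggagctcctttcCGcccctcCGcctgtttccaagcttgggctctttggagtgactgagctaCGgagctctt
The *Tnc* window lies on the minus strand at chr4:64046966-64047265, the *Reln* window on the minus strand at chr5:22344656-22344955, the *Sdc3* window on the plus strand at chr4:130792287-130792586 and the *Vcan* window on the minus strand at chr13:89742463-89742762. Promoter windows were found for 7 of the 8 genes, and of the 2 windows of *Tnc* the one at the outer start is shown. The *Reln* window holds 47 CG, a number reached by 1.44% of 32851 mouse promoter windows, and the *Sdc3* window holds 44, reached by 2.25%. The *Vcan* window holds 12, reached by 39.6%, and the *Tnc* window holds 10, reached by 43.5%, against a median of 7 over all windows. Of the other genes, *Hspg2* has 27, *Sdc1* has 14 and *Bgn* has 9. The word TATAAA, searched on both strands, occurs in *Tnc* alone of the 7 genes, at -126 from the start shown, and in 13.6% of all windows. The word TGTGGT, which is the core bound by RUNX factors, was searched on both strands and is in none of the 7 genes' windows and in 16.8% of all windows. These are matches of letters and not tested sites.

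*Bgn*, *Tnc*, *Hspg2* and *Cthrc1* had lower means in KO BM cells than in WT BM cells, but single libraries of the same genotype lay far apart. Each was high in KO4, WT1 and WT3, and low in KO8, KO9 and WT7. Biglycan, encoded by *Bgn* on chromosome X from 73483601 to 73495936, is a small leucine-rich proteoglycan that binds collagen fibrils and is abundant in bone. *Bgn* was at 37.7, 14.2 and 16.2 FPKM in KO4, KO8 and KO9, against 48.9, 45.3 and 17.5 FPKM in WT1, WT3 and WT7. KO4 thus lay above WT7, and the groups overlapped. The highest KO library was 2.66-fold above the lowest KO library and the highest WT library 2.80-fold above the lowest, while the WT mean was 1.64-fold above the KO mean. A range of single libraries tends to exceed a ratio of means, so these folds are not like measures. The log2 fold change (log2FC) of *Bgn*, taken on log2(FPKM + 1), was -0.69, with an SE of 0.54 (limma, Benjamini-Hochberg adjusted p = 0.598).

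Tenascin-C, encoded by *Tnc* on chromosome 4 from 63959785 to 64047015, is a matricellular glycoprotein that modulates the adhesion of cells to fibronectin. *Tnc* was at 7.50, 2.96 and 2.91 FPKM in KO4, KO8 and KO9, against 13.3, 11.3 and 3.58 FPKM in WT1, WT3 and WT7. KO4 was the sole KO library above WT7. Of the 8 genes *Tnc* had the lowest log2FC, at -0.87 (SE 0.52, limma adjusted p = 0.598). Perlecan, encoded by *Hspg2* on chromosome 4 from 137468751 to 137570630, is the large heparan sulfate proteoglycan of basement membranes. *Hspg2* was at 1.67, 0.529 and 0.634 FPKM in KO4, KO8 and KO9, against 3.20, 2.89 and 0.545 FPKM in WT1, WT3 and WT7. WT7 lay between the 2 low KO libraries. Its log2FC was -0.64 (SE 0.47, limma adjusted p = 0.598).

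*Cthrc1*, on chromosome 15 from 39076932 to 39087121, encodes a secreted glycoprotein with a short collagen repeat, known from osteoblasts and from injured arteries. *Cthrc1* was at 1.59, 0.147 and 0.220 FPKM in KO4, KO8 and KO9, against 2.91, 2.30 and 0.0402 FPKM in WT1, WT3 and WT7. It had the widest range of the 8 genes, 72.5-fold between the highest and the lowest library, both of them WT. Its log2FC was -0.63 (SE 0.51, limma adjusted p = 0.598), on a scale that understates the change of a gene near or below 1 FPKM. In bulk samples such as these, fewer cells of a type and less RNA per cell cannot be told apart.

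**Figure D1:**
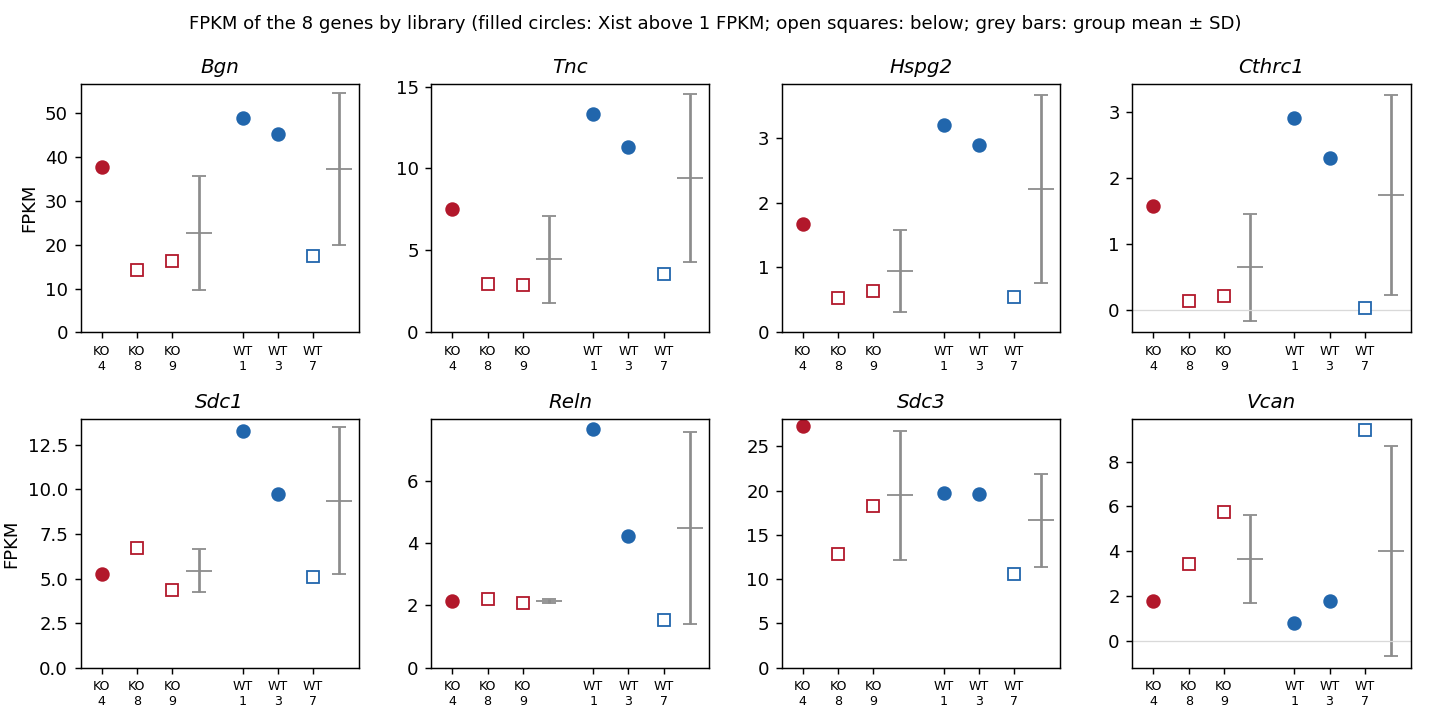
FPKM of each of the 8 genes (vertical axis, from 0 or just below) in the 3 KO libraries (red) and the 3 WT libraries (blue), with filled circles for libraries with *Xist* above 1 FPKM, open squares for the others and grey bars for the group mean ± SD. *Bgn*, *Tnc*, *Hspg2*, *Cthrc1* and *Sdc3* are higher in each filled library than in each open library, and *Vcan* is lower in each.

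*Sdc1* and *Reln* made up another pattern, with high levels in WT1 and WT3 alone and KO4 level with the other KO libraries. Syndecan-1, encoded by *Sdc1* on chromosome 12 from 8771396 to 8793716, is a transmembrane heparan sulfate proteoglycan that serves as a coreceptor for growth factors. *Sdc1* was at 5.24, 6.74 and 4.35 FPKM in KO4, KO8 and KO9, against 13.3, 9.75 and 5.10 FPKM in WT1, WT3 and WT7. WT7 lay within the KO range. For *Sdc1* the log2FC was -0.62 (SE 0.48, limma adjusted p = 0.598). *Reln*, on chromosome 5 from 21884454 to 22344705, encodes reelin, a large secreted glycoprotein known for guiding neurons through the lipoprotein receptors *Vldlr* and *Lrp8*. *Reln* was at 2.14, 2.20 and 2.08 FPKM in KO4, KO8 and KO9, against 7.67, 4.23 and 1.53 FPKM in WT1, WT3 and WT7. The KO libraries were within 1.05-fold of each other, the WT libraries spread over 5.02-fold, and WT7 was below every KO library. *Reln* had a log2FC of -0.63 (SE 0.49, limma adjusted p = 0.598).

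*Vcan* and *Sdc3* did not have a lower mean log2(FPKM + 1) in KO. Versican, encoded by *Vcan* on chromosome 13 from 89655309 to 89743027, is a large chondroitin sulfate proteoglycan that binds hyaluronan, and its value covers 5 annotated transcripts. *Vcan* was at 1.78, 3.44 and 5.74 FPKM in KO4, KO8 and KO9, against 0.805, 1.79 and 9.40 FPKM in WT1, WT3 and WT7. Both the highest and the lowest library were WT. The log2FC of *Vcan* was 0.22 (SE 0.57, limma adjusted p = 0.791), while it averaged 3.65 ± 1.99 FPKM in KO libraries, against 4.0 ± 4.71 FPKM in WT libraries (SD, n = 3 each), so the sign depends on the scale. Syndecan-3, encoded by *Sdc3* on chromosome 4 from 130792537 to 130826318, is a transmembrane heparan sulfate proteoglycan best known from the nervous system and muscle. *Sdc3* was at 27.2, 12.9 and 18.2 FPKM in KO4, KO8 and KO9, against 19.7, 19.7 and 10.6 FPKM in WT1, WT3 and WT7. KO4 was the highest library and WT7 the lowest. *Sdc3* had a log2FC of 0.20 (SE 0.49, limma adjusted p = 0.782).

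By mean FPKM, *Bgn* and *Sdc3* were the most abundant of the 8 genes in both genotypes. *Bgn* averaged 22.7 ± 13.1 FPKM in KO libraries, against 37.3 ± 17.2 FPKM in WT libraries (SD, n = 3 each). *Sdc3* averaged 19.4 ± 7.26 FPKM in KO libraries, against 16.6 ± 5.25 FPKM in WT libraries. *Sdc1*, *Tnc*, *Vcan* and *Reln* followed at 2.14 to 5.44 FPKM in KO libraries, against 4.0 to 9.40 FPKM in WT libraries. *Hspg2* was next, at 0.945 ± 0.632 FPKM in KO libraries, against 2.21 ± 1.45 FPKM in WT libraries. *Cthrc1* was lowest, at 0.652 ± 0.813 FPKM in KO libraries, against 1.75 ± 1.51 FPKM in WT libraries. In KO the neighbours in this order differed by less than the larger of their SDs, apart from *Sdc3* and *Sdc1* and from *Reln* and *Hspg2*. In WT the exceptions were *Bgn* and *Sdc3*, *Sdc3* and *Tnc*, and *Sdc1* and *Reln*.

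The limma test gave no adjusted p under 0.05 for any of the 8 genes or for any other of the 621 (0% of the table). At an unadjusted p under 0.05 there were 0 of the 8 genes and 14 of the 621, of which 8 were higher in KO (1.29%) and 6 were lower (0.966%). The KO and WT libraries overlapped for all 8 genes, while they did not overlap for 7.25% of the 621 (5.96% with KO above WT and 1.29% with KO below). A lower mean in KO was found for 6 of the 8 genes, against 61.8% of the 621. The median fold change on the log2 scale was -0.63 over the 8 genes and -0.35 over the whole table. These values depended on single libraries of both genotypes. Without KO4 the log2FC was -1.24 for *Tnc*, -1.11 for *Bgn*, -1.01 for *Cthrc1* and -0.89 for *Hspg2*. It was -0.63 for *Reln* and -0.61 for *Sdc1*, and the median of the 8 genes was -0.76, against -0.37 over the table. Without WT1 the log2FC was -0.21 for *Reln*, -0.27 for *Cthrc1*, -0.35 for *Sdc1*, -0.38 for *Hspg2*, -0.43 for *Bgn* and -0.56 for *Tnc*, and the median of the 8 genes was -0.33, against -0.13 over the table. Without WT7, the same 6 genes had an unadjusted p under 0.05 and were lower in KO, against 30.8% of the table lower and 9.82% higher in KO, and the log2 fold change of *Tnc* was -1.38, of *Cthrc1* -1.23, of *Bgn* -1.15, of *Hspg2* -1.10, of *Reln* -1.10 and of *Sdc1* -0.96. The smallest adjusted p of the 8 genes was then 0.104 from limma, and the median of the 8 genes was -1.10, against -0.58 over the table. The WT libraries left in that fit, WT1 and WT3, both had *Xist* above 1 FPKM, whereas KO8 and KO9 did not. Genotype and *Xist* can therefore not be fully told apart without WT7.

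**Figure D2:**
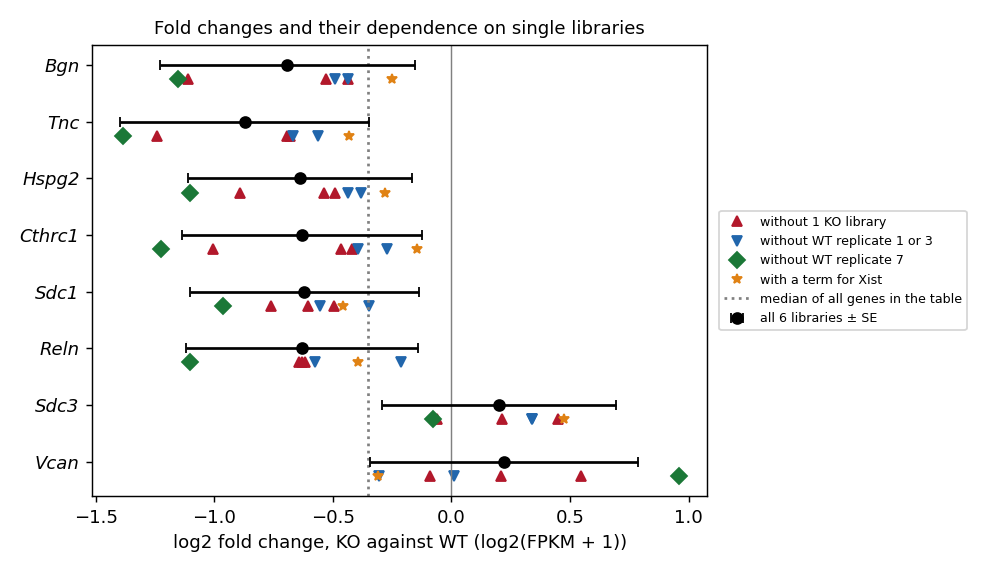
Log2 fold change of KO against WT on log2(FPKM + 1) (horizontal axis) for each gene, with all 6 libraries (black, ± standard error), without each library in turn and with a term for *Xist*; the dotted line is the median of all 621 genes at -0.35. Without WT7 (green) *Bgn*, *Tnc*, *Hspg2*, *Cthrc1*, *Sdc1* and *Reln* lie further from 0 and without WT1 nearer to 0, and *Sdc3* and *Vcan* lie on either side of 0 depending on the library left out.

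The stromal pattern was then set beside the marker lists. The 6 libraries make 15 pairs, and a gene that follows a list puts the libraries of a pair in the same order as the mean log2(FPKM + 1) of the list. These counts are descriptions, because the pairs share libraries and depth. The mean of the 36 stromal genes was 3.06, 1.89 and 1.98 in KO4, KO8 and KO9, against 3.61, 3.42 and 1.92 in WT1, WT3 and WT7. *Hspg2* had 15 of 15 pairs in the stromal order, *Bgn* and *Cthrc1* had 14 and *Tnc* had 13. *Sdc3* and *Reln* had 12, *Sdc1* had 11 and *Vcan* had 3. At least 12 pairs were thus in the stromal order for 6 of the 8 genes, against 30.1% of the 621, and at most 3 for *Vcan*, against 10.3%. With the list split by cell type, at least 12 pairs were in the order of the osteoblast and chondrocyte genes for 7 of the 8 genes (38.0% of the table). The same 7 had at least 12 pairs in the order of the mesenchymal and reticular genes (38.0%), and *Vcan* was the other gene. The count was 4 of 8 for the endothelial genes (22.7%) and 3 of 8 for the smooth muscle and pericyte genes (18.2%). A blood list, the erythroid and megakaryocyte genes, also had 3 of 8 (13.8%), with 13 pairs for *Bgn* and 12 each for *Hspg2* and *Tnc*. By order alone, these 3 genes thus followed that blood list as well. Within genotypes, which leaves out KO against WT, *Bgn*, *Hspg2*, *Cthrc1* and *Sdc3* kept 6 of 6 pairs, *Tnc* 5, *Reln* and *Sdc1* 4 and *Vcan* 1. At least 5 of these 6 pairs were in the stromal order for 5 of the 8 genes, against 26.9% of the 621.

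The size of the swings separated the genes further than the order did. After each profile was centred on its own mean, the root mean square difference from the stromal mean was 0.072 on the log2 scale for *Cthrc1*, 0.091 for *Bgn*, 0.11 for *Tnc* and 0.14 for *Hspg2*. It was 0.41 for *Reln*, 0.47 for *Sdc1*, 0.53 for *Sdc3* and 1.54 for *Vcan*. The scale of log2(FPKM + 1) understates swings below 1 FPKM, where *Cthrc1* and *Hspg2* lay in KO8, KO9 and WT7. No other pseudocount was tried for these differences, so the match in size holds for this scale only. Against lists of cell types, *Hspg2* was closest to the endothelial genes at 0.080, *Tnc* to the same genes at 0.13, and *Bgn* and *Cthrc1* to the mesenchymal and reticular genes at 0.11 and 0.10. Between members, *Bgn* and *Tnc* differed by 0.13, and *Reln* and *Sdc1* by 0.21.

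The genes closest in profile over the 6 libraries were then sought among the 543 others of at least 1 FPKM. For *Bgn* these were *Igfbp5*, an insulin-like growth factor binding protein of reticular cells, at a root mean square difference of 0.095, then *Tspan7* at 0.095 and the basement membrane collagen *Col4a2* at 0.10. For *Hspg2* they were *Abcc9*, a channel subunit of pericytes, at 0.045, *Fstl1* at 0.058 and *Ushbp1* at 0.066. For *Tnc* they were *Aldh1a2*, which makes retinoic acid, at 0.061, the gap junction gene *Gja1* at 0.075 and *Cldn5*, a tight junction gene of endothelium, at 0.076. For *Cthrc1* they were *Fkbp10*, a collagen chaperone, at 0.079, *Col11a2* at 0.099 and *Col6a2* at 0.11. *Igfbp5*, *Cldn5* and *Col11a2* are themselves in the stromal list. *Tspan7*, *Abcc9*, *Ushbp1*, *Aldh1a2*, *Cldn5* and *Fkbp10* were below 1 FPKM in KO8, KO9 and WT7, where log2(FPKM + 1) understates swings. *Aldh1a2* ran from 0.114 FPKM in KO9 to 3.32 FPKM in WT1, against 2.91 and 13.3 FPKM for *Tnc*, so such matches hold for this scale only. *Col1a1*, a chain of type I collagen and the stromal marker of highest level, was at 216, 26.6 and 31.6 FPKM in KO4, KO8 and KO9, against 471, 284 and 23.0 FPKM in WT1, WT3 and WT7.

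*Sdc1* and *Reln* were closer to the B-cell precursor genes than to the stromal genes. The 12 B-cell precursor genes in the table, of 16 listed, summed to 686 to 911 FPKM in KO libraries, against 606 to 1661 FPKM in WT libraries. Their mean log2(FPKM + 1) was 5.11, 5.51 and 5.29 in KO4, KO8 and KO9, against 6.48, 5.70 and 4.99 in WT1, WT3 and WT7. The root mean square difference from this mean was 0.18 for *Reln* and 0.19 for *Sdc1*, against 0.43 to 0.59 for *Bgn*, *Tnc*, *Hspg2*, *Cthrc1* and *Sdc3*. The order was shared in 14 of 15 pairs by *Reln*, in 13 by *Sdc1* and in 12 by *Cthrc1*, and 31.4% of the table had at least 12. By order alone the osteoblast and chondrocyte genes and the mesenchymal and reticular genes were nearly as close. *Reln* shared 13 of 15 pairs with each of these lists and *Sdc1* 12, and 38.0% of the table had at least 12. Of the 3 genes closest to *Reln*, *Rag2*, which rearranges immunoglobulin genes in B-cell precursors, differed by 0.090. *Rag2* is itself in the B-cell precursor list, so it is part of the mean above. *Egfl6* followed at 0.096 and *Arl5c* at 0.11. The genes closest to *Sdc1* were *Csrp2* at 0.055, *Emid1* at 0.081 and the DNA glycosylase *Neil1* at 0.084. *Rag2* was at 4.01, 4.90 and 4.21 FPKM in KO4, KO8 and KO9, against 13.5, 7.01 and 3.50 FPKM in WT1, WT3 and WT7.

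The plasma cell genes, for which *Sdc1* is the classical marker, gave a looser match. Only 4 of 17 listed plasma cell genes were in the table, *Sdc1* differed from their mean by 0.33 and *Reln* by 0.43, and both shared its order in at least 12 of 15 pairs, as did 25.8% of the table. The genes of this list did not share an order of libraries. *Mzb1*, which assists antibody assembly, was at 35.0, 50.7 and 38.2 FPKM in KO4, KO8 and KO9, against 90.1, 57.7 and 31.3 FPKM in WT1, WT3 and WT7, as *Sdc1* was high in WT1 and WT3. *Jchain*, which joins polymeric immunoglobulins, was at 59.7, 78.4 and 60.4 FPKM in KO4, KO8 and KO9, against 14.6, 19.2 and 61.6 FPKM in WT1, WT3 and WT7, and was thus low where *Sdc1* was high.

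**Figure D3:**
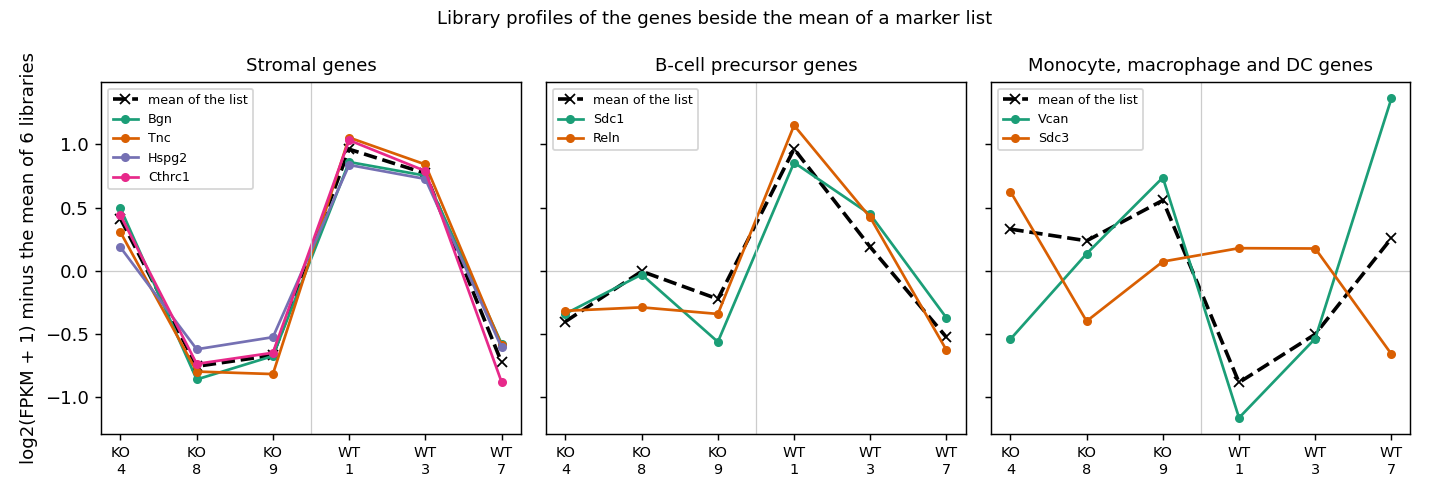
Centred log2(FPKM + 1) (vertical axis, log2 units from the mean of the 6 libraries) of the 8 genes and, as a dashed line, of the mean of the 36 stromal genes (left), the 12 B-cell precursor genes (middle) and the 5 monocyte, macrophage and dendritic cell (DC) genes (right), in KO and then WT libraries. *Bgn*, *Tnc*, *Hspg2* and *Cthrc1* lie on the stromal line within 0.14, *Sdc1* and *Reln* on the B-cell precursor line within 0.19, and *Vcan* departs from the third line by 0.59 (root mean square differences). *Sdc3*, drawn beside the third line, departs from it by 0.73 and from the stromal mean by 0.53. Both exceed the spread of *Sdc3* about its own mean, 0.42.

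*Vcan* ran against the stromal genes. It was farther from the stromal mean than any other of the 8 genes, and of the cell type lists it was closest to the monocyte, macrophage and dendritic cell genes, at 0.59, and then to the T-cell and NK-cell genes, at 0.70. It shared the order of the first list in 11 of 15 pairs and of the second in 10, the highest counts of the 8 genes, and none of the 8 reached 12 pairs for either (19.0% and 16.6% of the table did). The first list rests on 5 of 20 genes, 4 of which (*Cd74*, *H2-Aa*, *H2-Ab1* and *H2-Eb1*) serve antigen presentation and are also expressed by B cells, and it summed to 1644 to 2019 FPKM in KO libraries, against 797 to 1597 FPKM in WT libraries. No gene of the neutrophil and granulocyte precursor list was in the table. The genes closest to *Vcan* were *Il1r2*, a decoy receptor for interleukin-1 made by neutrophils and monocytes, at 0.28, and then the immediate-early genes *Dusp1* at 0.28 and *Fos* at 0.32. *Il1r2* was at 28.5, 43.9 and 45.1 FPKM in KO4, KO8 and KO9, against 17.3, 23.7 and 67.4 FPKM in WT1, WT3 and WT7. As in *Vcan*, WT7 was the highest library and WT1 the lowest. *Fos* was at 101, 204 and 251 FPKM in KO4, KO8 and KO9, against 64.0, 88.3 and 233 FPKM in WT1, WT3 and WT7. The part of the immediate-early response in the level of *Vcan* was not tested.

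*Sdc3* shared the stromal order in part but swung less, by 2.57-fold between its highest and lowest library. The genes closest to it were *Timd4*, a phosphatidylserine receptor of resident macrophages, at 0.13, *Apoc1* at 0.14 and *Mcam*, an adhesion molecule of pericytes and endothelium, at 0.15. *Timd4* was at 2.15, 0.981 and 1.26 FPKM in KO4, KO8 and KO9, against 1.85, 1.85 and 0.406 FPKM in WT1, WT3 and WT7. Of the cell type lists the smooth muscle and pericyte genes were closest to *Sdc3*, at 0.35, but only 3 of 12 were in the table, *Mcam* among them. That list shared the order of *Sdc3* in 11 of 15 pairs, against 13 for the osteoblast and chondrocyte genes and for the mesenchymal and reticular genes. The spread of *Sdc3* about its own mean was 0.42, less than its difference of 0.53 from the stromal mean. *Sdc1* and *Sdc3* differed by 0.36 to 0.61 from *Bgn*, *Tnc*, *Hspg2* and *Cthrc1*, and by 0.59 from each other.

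The division of the libraries by *Xist* coincided with the stromal pattern. KO4, WT1 and WT3, which had *Xist* above 1 FPKM, were all above the other 3 libraries in *Bgn*, *Tnc*, *Hspg2*, *Cthrc1* and *Sdc3*, 5 of the 8 genes, against 28.2% of the 621 genes. They were all below the others in *Vcan*, against 9.50%. *Sdc1* and *Reln* did neither. The labels give no sex. With 1 library of a genotype on each side, the differences within each side are given without a test. Among the libraries with *Xist*, KO minus WT in log2(FPKM + 1) was -0.31 for *Bgn*, -0.64 for *Tnc*, -0.60 for *Hspg2* and -0.47 for *Cthrc1*. Among the others it was -0.19 for *Bgn*, -0.22 for *Tnc*, 0.033 for *Hspg2* and 0.19 for *Cthrc1*.

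For *Sdc1* and *Reln* the difference lay with the libraries that had *Xist*. KO minus WT was -0.99 for *Sdc1* and -1.10 for *Reln* in these, and 0.077 for *Sdc1* and 0.31 for *Reln* in the others. For *Vcan* it was 0.31 with *Xist* and -0.93 without, and for *Sdc3* it was 0.45 and 0.50. *Sdc3* was thus the gene with a higher value in KO on both sides, and *Bgn* and *Tnc* were lower in KO on both sides. When the model also held a term for *Xist* above 1 FPKM, the fold change on the log2 scale was -0.25 for *Bgn*, -0.43 for *Tnc*, -0.28 for *Hspg2*, -0.14 for *Cthrc1*, -0.46 for *Sdc1*, -0.40 for *Reln*, -0.31 for *Vcan* and 0.47 for *Sdc3*. The smallest adjusted p of the 8 genes was then 0.705 from limma.

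**Figure D4:**
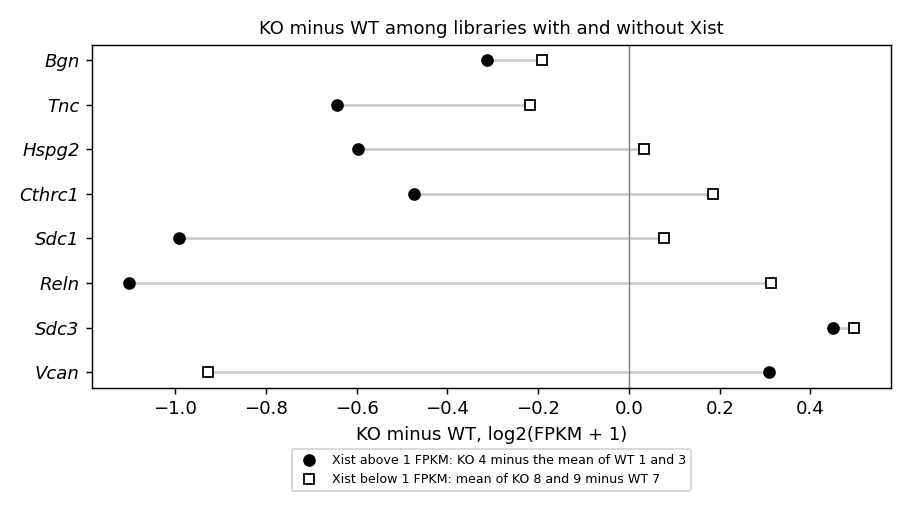
KO minus WT in log2(FPKM + 1) (horizontal axis) for each gene among the 3 libraries with *Xist* above 1 FPKM (filled circles) and among the 3 others (open squares). *Bgn* and *Tnc* lie below 0 and *Sdc3* above 0 in both, whereas *Reln* is at -1.10 and 0.31, and *Vcan* at 0.31 and -0.93.

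Other genes of the same matrix pathways were read from lists, and none of them passed the limma test. Of 34 listed proteoglycan core proteins, 5 others were in the table, of which 4 were lower and 1 was higher in mean in KO. Of all 621 genes, 61.8% were lower. The median log2FC of the 5 was -0.41, against -0.35 over the table. *Dcn*, encoding decorin, the close relative of biglycan, was at 12.1, 2.56 and 2.90 FPKM in KO4, KO8 and KO9, against 22.4, 13.8 and 2.19 FPKM in WT1, WT3 and WT7, and put 14 of 15 pairs in the stromal order, whose list holds *Dcn*, *Spp1*, *Mmp13* and *Stab2* as well. *Esm1*, a dermatan sulfate proteoglycan of endothelium, put 14 pairs in that order as well. *Prg2*, whose product is the major basic protein of eosinophils, was at 363 ± 58.7 FPKM in KO libraries, against 509 ± 223 FPKM in WT libraries (SD, n = 3 each). Although it is no stromal gene, it put 13 of 15 pairs in the stromal order, so that order is not particular to genes of the stroma. *Prg4*, encoding lubricin, was the gene with the higher mean in KO, at 9.05 ± 2.85 FPKM in KO libraries, against 6.35 ± 2.45 FPKM in WT libraries, with 1 of 15 pairs in the stromal order, so it ran against the stroma as *Vcan* did.

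All 7 other matricellular and related glycoproteins in the table, of 40 listed, were lower in mean in KO, as were 61.8% of the 621 genes. Their median log2 fold change was -0.51, against -0.35 over the table. *Sparc*, encoding osteonectin, was at 65.8, 14.9 and 31.6 FPKM in KO4, KO8 and KO9, against 139, 89.6 and 13 FPKM in WT1, WT3 and WT7. *Spp1*, encoding osteopontin, averaged 22.4 ± 6.43 FPKM in KO libraries, against 39.6 ± 17.0 FPKM in WT libraries, and *Fbln5* averaged 1.76 ± 0.983 FPKM in KO libraries, against 2.84 ± 1.26 FPKM in WT libraries. *Thbs1*, encoding thrombospondin-1, which platelets also carry, was at 16.3, 25.4 and 28.4 FPKM in KO4, KO8 and KO9, against 20.5, 21.7 and 91.6 FPKM in WT1, WT3 and WT7. It was the named gene of this list that did not follow the stroma, with 4 of 15 pairs in its order and its highest level in WT7, as for *Vcan*.

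The genes that build or cleave these proteins were few in the table. Of 31 enzymes that make or modify glycosaminoglycans, *Chst3*, a chondroitin sulfotransferase, and *Ndst1*, a heparan sulfate sulfotransferase, were present. *Chst3* was at 31.8, 42.0 and 36.5 FPKM in KO4, KO8 and KO9, against 68.7, 51.0 and 29.3 FPKM in WT1, WT3 and WT7. That is the order of libraries of the B-cell precursor mean. *Ndst1* averaged 14.9 ± 6.58 FPKM in KO libraries, against 16.3 ± 7.23 FPKM in WT libraries. Of 21 proteases and inhibitors, 5 were present, each lower in mean in KO, as were 61.8% of the 621 genes. The median log2 fold change of the 5 was -0.74, against -0.35 over the table. The collagenase *Mmp13* was at 8.13, 2.65 and 3.88 FPKM in KO4, KO8 and KO9, against 16.7, 17.2 and 3.83 FPKM in WT1, WT3 and WT7. *Mmp2* and *Bmp1* put 15 and 14 of 15 pairs in the stromal order. Of 13 hyaluronan genes, the endothelial scavenger receptor *Stab2* was present, at 1.99 ± 1.25 FPKM in KO libraries, against 3.04 ± 1.82 FPKM in WT libraries. None of 29 listed receptors and downstream genes, such as those of reelin and tenascin-C, was in the table.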

How the data were processed

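Marrow cells from 8-week-old mice gave 3 KO and 3 WT poly(A)-selected libraries. The authors aligned the reads to mm10 with HISAT2 version 2.0.5 and estimated abundance per library with StringTie version 1.3.3b, and deposited FPKM per gene and library. The authors also deposited log2 values made from FPKM by a normalization not given in the sources used here. Columns with the authors' own comparisons, as folds between libraries and group means, and their GO and KEGG enrichment tables were not used. Depth per library was not determined, so no counting interval is given.

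FPKM are not counts, so log2(FPKM + 1) of all 621 genes was fitted with limma (version 3.58.1, run under R version 4.3.3) using an intensity trend and Benjamini-Hochberg adjustment over 621 genes at 0.05. The filter kept genes above 0 in 3 or more libraries, which all 621 passed. The step was tested on simulated data. The variance prior carried 17.8 degrees of freedom and the residuals 4. Other steps used Python version 3.11.15 with pandas version 2.3.3 and numpy version 2.4.6.

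The members and lists were chosen with earlier results of these data known. Genes named are the 8 members, for each the 3 genes of at least 1 FPKM in mean and not predicted with the smallest root mean square difference of centred profiles, the 4 of highest mean in each pathway list and up to 2 in each cell type list used, and *Xist*. *H2-Ab1* and *H2-Eb1* fall outside this rule, and *Atp6v0c-ps2* was chosen after its values were seen. Alternatives tried a pseudocount of 0.1, no filter, a mean of 1 FPKM or more, quantile normalization, the same median in each library, no trend, the authors' log2 values, a threshold of 0.01, a term for *Xist*, and leaving out each library. Leaving out each library for the order of libraries was added after seeing the data. RefSeq genes on GRCm38.p6 matched all 8 members by gene ID.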

Additional observations from a re-analysis of the deposited data

Results flagged for a closer look

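*Reln* and *Cthrc1* were the genes of the 8 in which every KO library lay on one side of every WT library among those with *Xist* and on the other side among those without. For *Reln*, KO4 was below WT1 and WT3, and KO8 and KO9 were above WT7, so that KO minus WT differed by -1.42 in log2(FPKM + 1) between the libraries with *Xist* and the others. For *Cthrc1* the same held, with a difference of -0.66. *Cthrc1* in KO8, KO9 and WT7 was at 0.147, 0.220 and 0.0402 FPKM. The mean differences of *Vcan*, *Sdc1* and *Hspg2* also had opposite signs on the 2 sides and differed by 1.24, -1.07 and -0.63, so *Reln* and *Cthrc1* do not stand apart by size. As KO4 and WT7 are each the sole library of their genotype on their side, these differences are given as sizes only, without a p-value.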

How the results depend on the processing

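No paired analysis was possible because the KO and WT libraries share no replicate number. Of 15 alternatives, 4 (no filter, a mean of 1 FPKM or more, no trend and a threshold of 0.01) leave the fold changes as they are. Under the other 11, 83 of 88 values of the 8 genes kept their direction. No value passed the threshold under any of the 15. *Bgn*, *Hspg2*, *Tnc*, *Reln*, *Sdc1* and *Cthrc1* stayed negative throughout. The log2 fold change of *Vcan* was -0.31 with a term for *Xist* and ranged over -0.30 to 0.96 on leaving out 1 library, at -0.092 without KO9 and -0.30 without WT1. That of *Sdc3* ranged over -0.077 to 0.45 on leaving out 1 library, at -0.061 without KO4 and -0.077 without WT7. The cause was not tested. Over the whole table the median was -0.18 after quantile normalization and -0.22 with the same median in each library, and that of the 8 genes was -0.49 and -0.50. On leaving out 1 library, genes past the threshold numbered 0 to 1. The gene was *Xist* without KO4 (adjusted p = 0.000803 from limma) and *Atp6v0c-ps2* without KO9 (adjusted p = 0.0196 from limma). Genes of the 8 with a lower mean in KO numbered 6 to 7, and those with at least 80% of pairs in the stromal order 5 to 7, against 6 with all libraries. With the authors' log2 values *Reln* and *Sdc3* had 11 of 15 pairs in that order.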
